A study of Mus musculus with 10 samples.

Results

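The expression of 9 genes of plasma cells, the antibody-secreting end stage of the B cell lineage, was examined. They were Irf4, Prdm1, Xbp1, Sdc1, Tnfrsf17, Jchain (older symbol Igj), Mzb1, Derl3 and Fkbp11, and they were followed in the spleens of 10 female BALB/c mice, with 1 Affymetrix array for each mouse. The rule that selects them is a list of names, and every probe set that the array's annotation assigns to 1 of these symbols alone was taken. They are 9 of the 18193 genes that the annotation names singly, and they are represented by 18 probe sets.

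All 10 mice had been immunized, so no group was naive. Each received cartilage proteoglycan (PG, aggrecan) at 100 µg of protein together with 2 mg of the adjuvant dimethyldioctadecylammonium bromide (DDA) by intraperitoneal injection on days 0, 21 and 42, a schedule that induces arthritis (PGIA, a model of rheumatoid arthritis) in susceptible mice. The old arthritic group held 2 mice, both labelled 9 months old, and the old non-arthritic group held 2 mice of 7 and 5 months. The young arthritic group held 2 mice of 5 and 4 months, and the young non-arthritic group held 4 mice of 3, 3, 2 and 1 months. The age of 5 months therefore occurred in an old and in a young group, and within both age classes the arthritic mice were older than the non-arthritic ones. The labels do not say at which point of the experiment the age was taken. RNA came from a piece of each spleen and not from sorted cells.

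The signals are on a log2 scale after robust multi-array averaging (RMA), so that a difference of 1 is a doubling. Correlations between arrays over all probe sets ran from 0.981 to 0.997, and array medians ran from 6.88 to 6.96. Of 45037 probe sets other than controls, 23805 lay above the array median in at least 2 arrays and were tested. The B cell (17 of 17) and T cell (7 of 8) genes looked for on the array passed this filter. All 9 plasma cell genes passed it too, with 17 of their 18 probe sets. The exception was 1 of the 3 probe sets of Fkbp11. Where a gene had several probe sets, the tested one with the highest mean stands for it, and the others are given separately. With 10 arrays in groups of 2 to 4, the number of mice limits the precision of every value.

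Plasma cells arise when an activated B cell switches off its B cell programme and turns into a cell devoted to secretion. Irf4 and Prdm1 (Blimp-1) encode the transcription factors that drive this switch, and Xbp1 encodes the factor that enlarges the endoplasmic reticulum to carry the antibody load. Sdc1 (CD138, syndecan-1) and Tnfrsf17 (BCMA, a receptor for the survival factors APRIL and BAFF) are surface proteins of the mature cell. Jchain joins the subunits of polymeric IgM and IgA, Mzb1 assists antibody assembly, Derl3 helps to remove misfolded proteins from the endoplasmic reticulum, and Fkbp11 is a prolyl isomerase of the secretory pathway. The spleen holds short-lived plasma cells that form after immunization, beside a much larger population of B cells.

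Because Xbp1 acts through short promoter elements shared by endoplasmic reticulum genes, the RefSeq promoter windows (build GRCm38.p6) of the 9 genes were searched on both strands. Windows were found for 8 genes, 9 in all, since Fkbp11 had more than 1. The endoplasmic reticulum stress element, made of CCAAT and CCACG with 9 bases between them, was present in 1 of these 9 windows, that of Derl3, and in 39 of 32851 promoter windows of the mouse (0.119%). The site TGACGTGG was in none of the 9 windows and in 0.676% of all windows. The letters CCACG, which also end the stress element, were in 5 of the 9 windows and in 32.8% of all. The searched windows also held bases after the start of the gene, and that of Derl3 ran on to chr10:75893447. Only the part before the start is shown. In that of Derl3 the stress element is in capitals, where it reads on the reverse strand and lies 156 to 138 bases before the start. The same part for Jchain, the gene of a secreted product, is shown beside it, and the Jchain window held none of the 3 motifs. A match is only a match of letters, and no binding was measured. The 250 bases before the start of each gene, 5′ to 3′ on the gene's strand, lie at chr10:75893148-75893397 (plus strand) for Derl3 and at chr5:88527898-88528147 (minus strand) for Jchain.
Derl3: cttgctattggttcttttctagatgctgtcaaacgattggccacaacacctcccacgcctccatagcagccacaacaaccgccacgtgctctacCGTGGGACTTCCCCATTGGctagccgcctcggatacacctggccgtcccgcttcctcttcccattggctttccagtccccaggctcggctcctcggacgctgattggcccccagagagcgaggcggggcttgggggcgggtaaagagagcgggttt
Jchain: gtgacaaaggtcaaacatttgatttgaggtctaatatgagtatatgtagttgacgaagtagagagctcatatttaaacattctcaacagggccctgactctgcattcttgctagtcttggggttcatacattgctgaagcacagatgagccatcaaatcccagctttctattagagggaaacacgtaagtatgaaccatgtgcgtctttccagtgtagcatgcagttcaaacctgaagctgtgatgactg

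In the regulators, 1 old arthritic mouse stood far above the other. Irf4 was at 10.33 and 11.18 in the old arthritic mice, 10.17 and 10.34 in the old non-arthritic mice, 10.51 and 10.33 in the young arthritic mice, and 10.15, 10.38, 10.11 and 10.16 in the young non-arthritic mice. Only old arthritic mouse 2 lay clear of the rest, by 0.67, and the arthritic and non-arthritic ranges overlapped. Prdm1, which shuts down B cell genes, was at 9.12 and 10.41 in the old arthritic mice, 9.13 and 9.26 in the old non-arthritic mice, 9.47 and 9.43 in the young arthritic mice, and 9.06, 9.39, 8.97 and 9.16 in the young non-arthritic mice. Old arthritic mouse 2 exceeded the next array by 0.94, whereas old arthritic mouse 1 lay inside the range of the non-arthritic mice. Xbp1 was at 13.04 and 13.61 in the old arthritic mice, 13.16 and 13.06 in the old non-arthritic mice, 13.40 and 13.40 in the young arthritic mice, and 13.08, 13.19, 12.97 and 13.08 in the young non-arthritic mice. Both young arthritic mice were above all 6 non-arthritic mice for Xbp1, by at least 0.21, and old arthritic mouse 1 was not.

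Of the surface proteins, Tnfrsf17 separated the arthritic from the non-arthritic mice, and for Sdc1 the separation differed between its probe sets. Tnfrsf17 was at 8.07 and 9.33 in the old arthritic mice, 7.68 and 7.69 in the old non-arthritic mice, 8.58 and 8.86 in the young arthritic mice, and 7.53, 7.71, 8.05 and 7.82 in the young non-arthritic mice. All 4 arthritic mice were above all 6 non-arthritic mice, although the lowest arthritic and the highest non-arthritic mouse were only 0.03 apart. Of the 9 probe sets that stand for the genes, no other had this full separation, which 10.4% of all tested probe sets showed. On the probe set that stands for it, Sdc1 was at 9.73 and 10.92 in the old arthritic mice, 9.73 and 9.81 in the old non-arthritic mice, 10.25 and 10.02 in the young arthritic mice, and 9.65, 9.94, 10.04 and 9.79 in the young non-arthritic mice. On this probe set the young arthritic and young non-arthritic ranges overlapped by 0.02, and old arthritic mouse 1 was as low as the old non-arthritic mice.

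Among the genes of antibody assembly and secretion, Jchain varied least. It was at 14.27 and 14.56 in the old arthritic mice, 14.22 and 14.19 in the old non-arthritic mice, 14.33 and 14.50 in the young arthritic mice, and 14.28, 14.24, 14.25 and 14.34 in the young non-arthritic mice. Its arthritic and non-arthritic ranges overlapped, and its signal was near the top of the array's scale, where the highest value of any probe set was 15.36. Mzb1 was at 12.69 and 13.47 in the old arthritic mice, 12.54 and 12.78 in the old non-arthritic mice, 12.89 and 13.04 in the young arthritic mice, and 12.73, 12.75, 12.70 and 12.73 in the young non-arthritic mice. The 4 young non-arthritic mice were close together for Mzb1, with both young arthritic mice above them. Derl3 was at 10.01 and 11.26 in the old arthritic mice, 9.88 and 10.02 in the old non-arthritic mice, 10.24 and 10.50 in the young arthritic mice, and 9.70, 9.91, 10.17 and 10.04 in the young non-arthritic mice. Fkbp11 was at 7.91 and 8.72 in the old arthritic mice, 7.54 and 7.78 in the old non-arthritic mice, 8.23 and 8.44 in the young arthritic mice, and 7.90, 8.05, 8.20 and 7.94 in the young non-arthritic mice. In both genes the young arthritic mice were just above the young non-arthritic mice, by 0.07 for Derl3 and 0.03 for Fkbp11, and old arthritic mouse 2 was the highest of all.

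**Figure D1:**
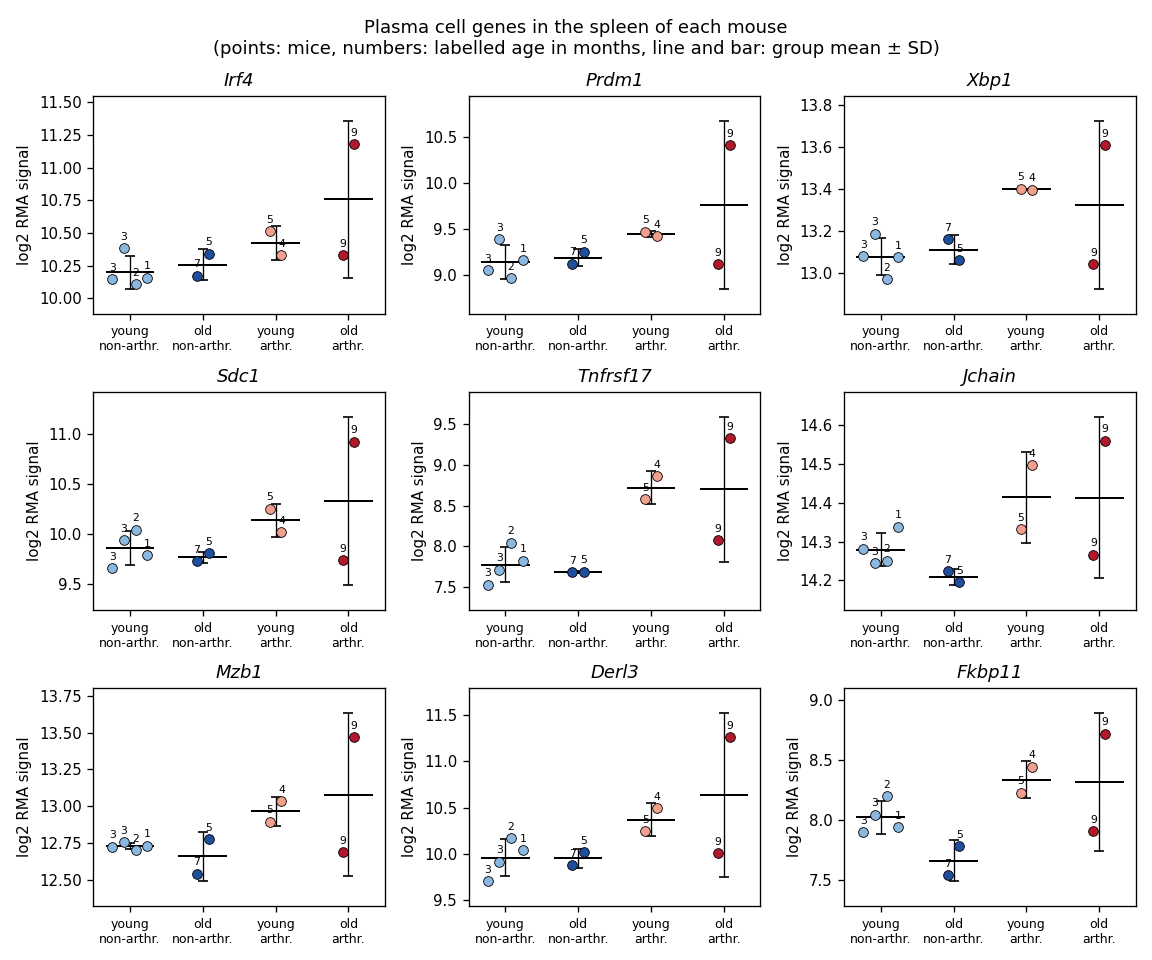
Log2 RMA signal (y axis, scaled separately for each gene) of the 9 plasma cell genes in the 4 groups (x axis). Each point is 1 mouse with its labelled age in months, and the line and bar are the group mean ± SD. Old arthritic mouse 2 is the highest point in all 9 panels, and the lower old arthritic mouse lies among the non-arthritic mice in 8 of them.

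The 2 old arthritic mice, which carry the same labels, thus differed more from each other, in all 9 genes, than the old arthritic mean did from the old non-arthritic mean. Mouse 2 exceeded mouse 1 by 1.29 for Prdm1 (2.44-fold), 1.25 for Tnfrsf17 (2.39-fold), 1.25 for Derl3 (2.38-fold) and 1.19 for Sdc1 (2.27-fold), and by 0.29 for Jchain (1.23-fold), the smallest gap. The gap was at least 0.5 in 8 of the 9 genes, whereas in 3.01% of all tested probe sets mouse 2 exceeded mouse 1 by that much, with a median gap of 0.05. Old arthritic mouse 2 had the highest value of the 10 mice in 9 of 9 plasma cell genes and in 21.4% of all tested probe sets. In Prdm1, Irf4, Sdc1 and Derl3 it was above every other mouse by at least 0.5, as was the case for 0.302% of all tested probe sets. Old arthritic mouse 1 was within the range of the non-arthritic mice in 8 of the 9 genes, against 57.2% of all tested probe sets. In a whole spleen, more plasma cells and more RNA of these genes per cell cannot be told apart.

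The comparison of old arthritic with old non-arthritic mice asked what accompanies arthritis in aged mice. Its arthritic mice were both 9 months old and its non-arthritic mice 7 and 5 months, so arthritis and age cannot be told apart in it. All 9 plasma cell genes had a higher mean in the arthritic mice, with a median difference of 0.56, whereas 58.6% of all tested probe sets were higher and their median difference was 0.05. The differences ran from 0.20 for Jchain to 1.01 for Tnfrsf17 (SE 0.33, 2.02-fold, adjusted p = 0.169). In limma with Benjamini-Hochberg adjustment none of the 9 genes passed the threshold of 0.05, and 17 of the 23805 probe sets did (0.0714%). At an unadjusted p under 0.05, Tnfrsf17 and Fkbp11 passed, 2 of 9 genes against 18.6% of all probe sets. Both arthritic mice were above both non-arthritic mice in 3 of the 9 genes, namely Jchain, Tnfrsf17 and Fkbp11, against 35.3% of all probe sets. The outcome turned on which old arthritic mouse was kept. Without mouse 1 the median difference was 1.06, with 1.64 for Tnfrsf17, 1.31 for Derl3 and 1.22 for Prdm1. Over all tested probe sets the median was then 0.09. Without mouse 2 the median difference was 0.06, against 0.04 over all tested probe sets. Prdm1, Sdc1 and Xbp1 then had differences of -0.07, -0.03 and -0.07. In each of these fits the single remaining mouse was assumed to vary like the mice of the other groups, so its own spread was not measured. Over all 18 alternatives the difference ran from 0.39 to 1.64 for Tnfrsf17, 0.06 to 1.31 for Derl3 and -0.07 to 1.22 for Prdm1. Both ends of each range came from leaving out 1 old arthritic mouse. With both old arthritic mice kept, no plasma cell gene passed in this comparison under any alternative.

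In the young mice 6 of the 9 genes were higher in both arthritic mice than in any non-arthritic mouse of that age class, and Jchain, Irf4 and Sdc1 overlapped. The 6 genes were Xbp1, Prdm1, Tnfrsf17, Mzb1, Derl3 and Fkbp11, against 25.6% of all tested probe sets, and in the same 6 genes both mice were above all 6 non-arthritic mice, against 23% of all. All 9 mean differences were positive, with a median of 0.30, whereas 69.3% of all tested probe sets were positive with a median of 0.09. Tnfrsf17 stood out with a mean of 8.72 ± 0.20 (SD, n = 2) in the arthritic and 7.78 ± 0.22 (SD, n = 4) in the non-arthritic mice, a difference of 0.94 (SE 0.29, 1.93-fold) with an adjusted p of 0.168. The other 8 genes differed by 0.14 for Jchain to 0.41 for Derl3. None of the 9 passed in limma, against 74 of 23805 probe sets (0.311%), and at an unadjusted p under 0.05 Tnfrsf17 and Xbp1 passed, 2 of 9 genes against 18.2% of all. Tnfrsf17 passed when either old arthritic mouse was left out of the shared estimate of the spread (adjusted p = 0.0476 both times), and over all 18 alternatives its adjusted p ranged from 0.0476 to 0.641. The arthritic mice of this comparison were 4 and 5 months old and the non-arthritic mice 1 to 3 months, so that arthritis and age cannot be told apart in it.

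The fit of all 10 mice on age in months and arthritis set arthritic against non-arthritic mice at equal age. The arthritic mice were 4 to 9 months old and the non-arthritic mice 1 to 7, and 5 months was the only age on both sides. The difference at equal age therefore assumes a straight-line change with age and does not compare mice matched in age. The difference was largest for Tnfrsf17, at 1.04 (SE 0.25, 2.06-fold, 95% interval 0.48 to 1.61), with an adjusted p of 0.0606. Fkbp11 followed with 0.59 (SE 0.19, 1.51-fold, adjusted p = 0.107), then Derl3 with 0.51 (SE 0.26, adjusted p = 0.272). The remaining genes lay between 0.20 for Jchain and 0.38 for Sdc1. All 9 were positive, with a median of 0.33, against 68.5% and a median of 0.09 over all tested probe sets. None passed in limma, whereas 538 of 23805 probe sets did (2.26%), and at an unadjusted p under 0.05 Tnfrsf17, Fkbp11 and Jchain passed, 3 of 9 genes against 22.9% of all. The call on Tnfrsf17 depended on the settings. It passed without the filter on dim probe sets (adjusted p = 0.0215), with the probe sets of each gene averaged (adjusted p = 0.0468), without old arthritic mouse 1 (adjusted p = 0.0267) and without old arthritic mouse 2 (adjusted p = 0.0242). Tnfrsf17 has 1 probe set, so averaging left its difference at 1.04 and changed only the SE and the adjustment. The count over all probe sets moved as well. It rose without the filter and ranged from 0 to 872 when 1 mouse was left out. Over the 17 alternatives the difference of Tnfrsf17 stayed between 0.95 and 1.14 and its adjusted p ranged from 0.0215 to 0.287. Fkbp11 passed without old arthritic mouse 2, at 0.52 (adjusted p = 0.0397), and its adjusted p ranged up to 0.412. With its probe sets averaged its difference was 0.21 in place of 0.59.

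No plasma cell gene differed detectably with age. Between old and young non-arthritic mice the differences ran from -0.36 for Fkbp11 (SE 0.20, adjusted p = 0.997) to 0.06 for Irf4, with a median of -0.07 and with 3 of 9 genes positive, against 42.7% of all tested probe sets. Both old non-arthritic mice were below all 4 young ones for Jchain and Fkbp11, as in 7.77% of all probe sets, and no gene had both old mice above all young ones, against 4.21% of all. None of the 9 genes and none of the 23805 probe sets (0%) passed in limma, and at an unadjusted p under 0.05 the counts were 0 and 759 (3.19%). The intervals were wide enough to hold sizeable changes, for example -0.75 to 0.56 for Tnfrsf17. The slope per month at equal arthritis status ran from -0.05 for Fkbp11 to 0.04 for Irf4, with 5 of 9 positive against 39.9% of all probe sets, and none of the 9 passed, against 1 of 23805 (0.0042%). At an unadjusted p under 0.05, 0 of the 9 slopes passed, against 9.98% of all probe sets.

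Whether the arthritis difference itself changed with age class was tested as an interaction. The old difference minus the young difference ran from -0.11 for Xbp1 to 0.34 for Fkbp11, with every adjusted p at 0.9997. No plasma cell gene and no other probe set passed in limma (0%), and at an unadjusted p under 0.05 the counts were 0 of 9 genes and 737 probe sets (3.1%). For Tnfrsf17 the interaction was 0.07 with a 95% interval of -0.93 to 1.07, which is nearly as wide in each direction as the arthritis difference itself. The interaction was positive in 8 of the 9 genes, against 42.5% of all tested probe sets. This direction turned on 1 mouse, since the interaction was positive in 9 of 9 genes without old arthritic mouse 1 (median 0.70) and in 0 of 9 without old arthritic mouse 2 (median -0.31). The old, young and equal-age comparisons share mice, so their differences are not independent of one another.

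**Figure D2:**
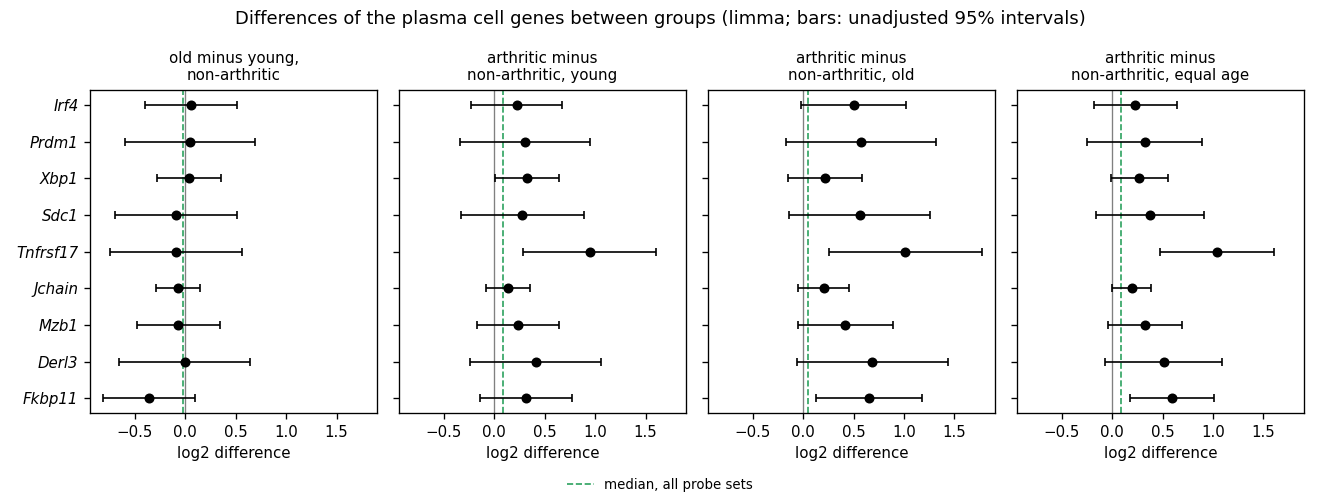
Log2 differences (x axis) of the 9 plasma cell genes (y axis) in 4 comparisons from limma, with unadjusted 95% intervals. The dashed line is the median difference over all 23805 tested probe sets. All 9 points are to the right of 0 in the 3 arthritis panels, with Tnfrsf17 farthest, and they lie around 0 in the age panel.

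Further probe sets of the same genes followed the first in Sdc1, Irf4 and part of Xbp1, and not in Fkbp11. The 3 other probe sets of Sdc1 correlated with the first at r = 0.90, 0.91 and 0.96 over the 10 mice, and each had its highest value in old arthritic mouse 2. On all 3 of them both young arthritic mice were above all 6 non-arthritic mice, unlike on the first. On 1448158_at all 4 arthritic mice (8.23, 9.29, 8.53 and 8.58) were above all 6 non-arthritic mice (7.97 to 8.21), and the difference at equal age was 0.55 (SE 0.21, adjusted p = 0.165). The second probe set of Irf4 (r = 0.93) was at 8.21 and 9.29 in the old arthritic mice and between 8.05 and 8.39 in the others, so that the young arthritic mice were not raised on it. For Xbp1, probe sets 1437223_s_at and 1420011_s_at followed the first at r = 0.96 and 0.92. On 1420011_s_at all 4 arthritic mice (10.74, 11.50, 11.07 and 11.30) were above all 6 non-arthritic mice (10.45 to 10.69), and the difference at equal age was 0.67 (SE 0.16, adjusted p = 0.0578), against 0.27 (SE 0.13) on the first probe set. On the remaining probe set of Xbp1, 1420012_at (r = 0.64), the highest value was in young arthritic mouse 2. The probe sets of Fkbp11 disagreed. Its probe set 1425938_a_at was at 7.28 and 7.49 in the old arthritic mice, 7.08 and 7.05 in the young arthritic mice, and between 6.89 and 7.45 in the non-arthritic mice, with a difference at equal age of -0.18 (SE 0.14) and a correlation of -0.07 with the first. Its remaining probe set, 1425839_at, was above the array median in 0 arrays. The values given for Fkbp11 therefore rest on 1 probe set.

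The 9 genes varied together over the mice. The 36 pairwise correlations over the 10 arrays ran from 0.70 to 0.98 with a median of 0.87. Without old arthritic mouse 2 they ran from 0.17 to 0.93 with a median of 0.69, the lowest being Jchain with Irf4 and the highest Tnfrsf17 with Derl3. All pairs share the same arrays and the same group structure, and the values are given as a description.

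The genes outside the list that ran most like it were chosen by their correlation with the mean standardized level of the 9 genes, over 10 arrays. This mean was 2.28 in old arthritic mouse 2, 0.47 and 0.72 in the young arthritic mice, -0.45 in old arthritic mouse 1, and between -0.77 and -0.25 in the non-arthritic mice. The 10 closest of the genes tested were Ydjc, Spint2, Bhlha15, Desi1, Prdx4, Chac1, Sil1, Sephs1, Pqlc3 and Cnpy2, with r from 0.98 down to 0.96, and from 0.94 down to 0.86 without old arthritic mouse 2. Bhlha15 (Mist1), a transcription factor of secretory cells, was at 8.81 and 9.74 in the old arthritic mice, 8.43 and 8.53 in the old non-arthritic mice, 8.93 and 9.03 in the young arthritic mice, and between 8.48 and 8.66 in the young non-arthritic mice. All 4 arthritic mice were above the 6 non-arthritic ones, and the difference at equal age was 0.54 (SE 0.19, adjusted p = 0.142). Prdx4, a peroxiredoxin of the endoplasmic reticulum, differed by 0.45 (SE 0.15, adjusted p = 0.109). Sil1, the nucleotide exchange factor of the chaperone Hspa5, was at 10.08 in old arthritic mouse 2 and between 9.22 and 9.52 in the 9 other mice. Chac1, a glutathione-degrading enzyme induced by stress of the endoplasmic reticulum, was at 8.60 in old arthritic mouse 2 and between 6.37 and 7.44 in the others. None of these 10 genes passed in any of the 6 comparisons. Since they were chosen in these same data for this correlation, their order over the mice and their differences follow in part from the choice.

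The antibody genes, whose transcripts are the main product of plasma cells, did not follow this order of mice. Annotation gave 43 probe sets to single immunoglobulin symbols, of which 31 were tested, under 15 symbols. Of these 31, old arthritic mouse 2 was highest in 5, namely 3 of Iglv1 and 2 of Ighm. It was highest in 21.4% of all tested probe sets and in 9 of 9 plasma cell genes. A young arthritic mouse was highest in 21 of the 31, and the share over all tested probe sets was not counted for this. Both young arthritic mice were above all 4 young non-arthritic mice in 23 of the 31, against 25.6% of all tested probe sets, and all 4 arthritic mice were above all 6 non-arthritic mice in 5 of the 31, against 10.4%. Old arthritic mouse 2 exceeded old arthritic mouse 1 in 14 of the 31 and in all 9 plasma cell genes. Over all tested probe sets the median gap between these mice was 0.05. The correlation of a probe set with the mean level of the plasma cell genes had a median of 0.36 and ran from -0.35 to 0.90. B cells carry immunoglobulin transcripts too, and many of these probe sets bind transcripts of several similar gene segments, so a symbol here is that of the annotation and not of 1 segment.

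At equal age 29 of the 31 immunoglobulin probe sets were higher in arthritic mice, with a median difference of 0.52, and 10 passed in limma, against 2.26% of all tested probe sets. They were 4 of Ighm (0.82 to 1.27), 2 of Igk (0.66 and 0.71), and 1 each of Ighg3 (0.86), Igkv6-14 (0.77), Igkv8-30 (0.27, adjusted p = 0.04995) and Igkv9-120. Probe sets of 1 symbol are not independent. With the brightest probe set for each of the 15 symbols, 14 were positive, with a median of 0.35. Igk, Igkv6-14 and Igkv8-30 then passed, 3 of 15, and Ighm differed by 0.07 (adjusted p = 0.50). The count of 10 probe sets rested on single mice. It was 0 without old non-arthritic mouse 1 or young arthritic mouse 2, 1 without old non-arthritic mouse 2 or young arthritic mouse 1, 3 without young non-arthritic mouse 3, 4 without young non-arthritic mouse 1 or 2, 5 without old arthritic mouse 2, and 9 without either of the remaining mice.

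Igkv9-120, a kappa variable segment named here after its values were seen, gave the most regular pattern. On probe set 1452536_s_at it was at 11.87 and 12.04 in the old arthritic mice, 10.30 and 10.16 in the old non-arthritic mice, 11.99 and 12.29 in the young arthritic mice, and 10.64, 11.22, 10.96 and 11.13 in the young non-arthritic mice. The arthritic mice were all above the non-arthritic mice, and the difference was 1.73 in old mice (adjusted p = 0.0240), 1.15 in young mice (adjusted p = 0.0357) and 1.67 at equal age (adjusted p = 0.00915). It was the 1 immunoglobulin probe set of 31 that passed in the old and in the young comparison. In the old comparison no immunoglobulin probe set passed without old arthritic mouse 2, either old non-arthritic mouse, or young non-arthritic mouse 2 or 3. In the young comparison none passed when any mouse other than the 2 old arthritic ones was left out. A second probe set of the same symbol, 1460423_x_at, was between 13.09 and 13.67 in all mice and differed by 0.32 at equal age (adjusted p = 0.0965).

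Of the named immunoglobulin genes, Igha, the IgA constant region, was at 14.30 and 14.75 in the old arthritic mice, 14.41 and 14.69 in the old non-arthritic mice, 14.78 and 14.77 in the young arthritic mice, and 13.60, 14.48, 14.31 and 14.26 in the young non-arthritic mice. Its lowest value belonged to young non-arthritic mouse 1, and it differed by 0.34 at equal age (adjusted p = 0.415). Ighm, the IgM heavy chain, gave flat values on its brightest probe set, 1427351_s_at, between 15.21 and 15.36 and thus at the top of the array's scale. On its probe set 1425247_a_at it was at 13.16 in old non-arthritic mouse 1 and 14.09 in old non-arthritic mouse 2, and between 14.40 and 14.87 in the 8 other mice. Iglv1, a lambda variable segment, was at 14.39 in old arthritic mouse 2 and between 13.68 and 14.30 in the others, with a difference at equal age of 0.35 (adjusted p = 0.131).

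**Figure D3:**
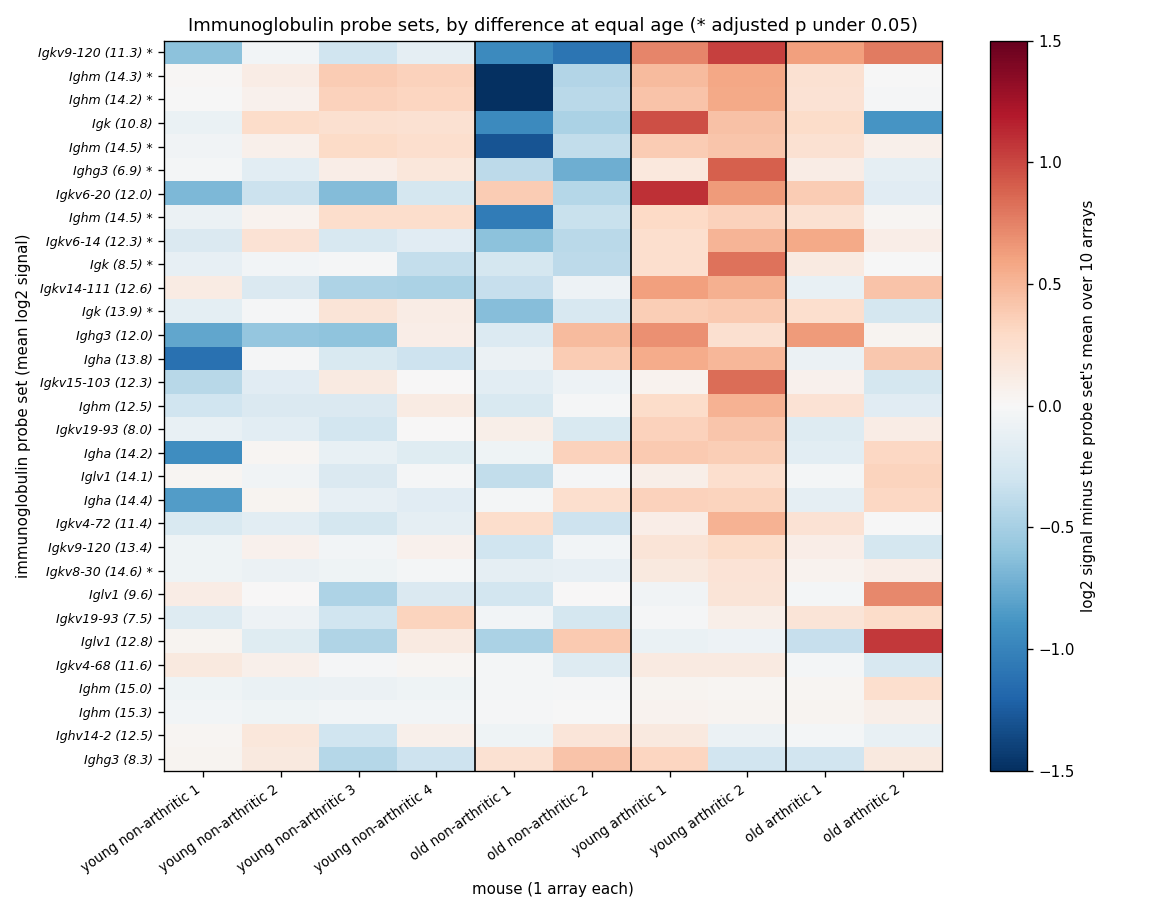
Log2 signal of the 31 tested immunoglobulin probe sets (rows, with the mean signal in brackets) in each mouse (columns), relative to the mean of the probe set over the 10 arrays, ordered by the difference at equal age. The colour scale ends at 1.5 in both directions and a star marks an adjusted p under 0.05. The young arthritic columns hold most of the highest values, and old non-arthritic mouse 1 is lowest on 4 of the starred Ighm rows.

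In a list of further plasma cell genes 1 gene passed. Of 22 further plasma cell genes, 20 were tested, and at equal age 15 were positive with a median of 0.14, against 68.5% and a median of 0.09 over all tested probe sets. The 1 gene that passed compares with 2.26% of all tested probe sets. Cd93, a surface glycoprotein that plasma cells need for long-term persistence, passed at equal age with 0.52 (SE 0.11, adjusted p = 0.0486). It was at 10.30 and 10.44 in the old arthritic mice, 9.97 and 9.99 in the old non-arthritic mice, 10.80 and 10.36 in the young arthritic mice, and 10.01, 10.11, 10.21 and 10.23 in the young non-arthritic mice, with no overlap between arthritic and non-arthritic mice. Unlike the 9 plasma cell genes, Cd93 was highest in young arthritic mouse 1 and not in old arthritic mouse 2. Which cells of the spleen carried it was not tested. Txndc5, a disulfide isomerase abundant in plasma cells, was at 13.95 in old arthritic mouse 2 and between 12.75 and 13.14 in the others. Pou2af1, the B cell coactivator OBF-1, was at 13.02 in old arthritic mouse 2 and between 12.33 and 12.70 in the others.

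Of 31 genes of the endoplasmic reticulum and secretion, all 31 were tested and none passed in any comparison. At equal age 30 of 31 were positive, with a median of 0.17, against 68.5% of all tested probe sets. Between old and young non-arthritic mice 1 of 31 was positive, with a median of -0.12, against 42.7% of all. Calr and Hspa5, which had the highest mean signals in the list, differed by 0.10 (SE 0.09) and -0.04 (SE 0.10) at equal age. Hspa5, the chaperone BiP that holds unassembled heavy chains, was thus the gene of this list with the value below 0.

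The B cell identity genes had medians close to 0. Of 18 B cell identity genes 17 were tested, none passed in any comparison, and the median difference was -0.05 for old mice, -0.01 for young mice and -0.03 for equal age. Ms4a1 (CD20) was between 12.83 and 12.95 in the arthritic mice and between 12.65 and 13.06 in the non-arthritic mice. Cd74, the invariant chain of antigen presentation, was at 14.54 and 14.50 in the old and 14.56 and 14.52 in the young arthritic mice, and between 14.36 and 14.44 in the non-arthritic mice, with a difference at equal age of 0.11 (SE 0.06, adjusted p = 0.309). Of 11 germinal centre genes and regulators that oppose Prdm1, 9 were tested and none passed, with medians of -0.23 for old mice, 0.11 for young mice and 0.26 for equal age. At equal age 8 of the 9 were positive, against 68.5% of all tested probe sets. In old arthritic mouse 2 the median deviation of these 9 genes from their means was -0.28, and that of the 9 plasma cell genes was 0.82. In old non-arthritic mouse 1 the medians were -0.34 and -0.26. In the young arthritic mice the germinal centre list was at 0.30 and 0.17, and the plasma cell genes were at 0.15 and 0.20. Irf8, which keeps B cells from the plasma cell fate, was at 12.26 and 12.10 in the old arthritic mice and between 12.26 and 12.45 in the 8 others. Id3, an inhibitor of E proteins, was at 10.60 and 10.34 in the old arthritic mice and between 10.59 and 10.98 in the others.

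Markers of other cells of the spleen moved between the same mice. The log2 of the summed signal of the 9 tested neutrophil genes was 16.88 to 17.18 in the old arthritic mice, 16.02 to 16.19 in the old non-arthritic mice, 16.91 to 17.45 in the young arthritic mice and 16.40 to 17.13 in the young non-arthritic mice. All 9 were higher at equal age, with a median of 1.12, and none passed. S100a9 and S100a8, calcium-binding proteins of neutrophils, differed by 0.57 (SE 0.18) and 0.42 (SE 0.13). Between the 2 old arthritic mice, the summed signal of mouse 2 was above that of mouse 1 for the neutrophil list (17.18 against 16.88), close to it for the dividing cell list (14.98 against 14.99) and the T cell list (13.10 against 13.09), and below it for the mesothelium and epithelium list (10.73 against 10.86). For the pancreatic acinar list, of which 8 of 15 genes on the array were below the filter, it was 11.73 against 11.49. The part of these cells in the plasma cell gene values was not tested.

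**Figure D4:**
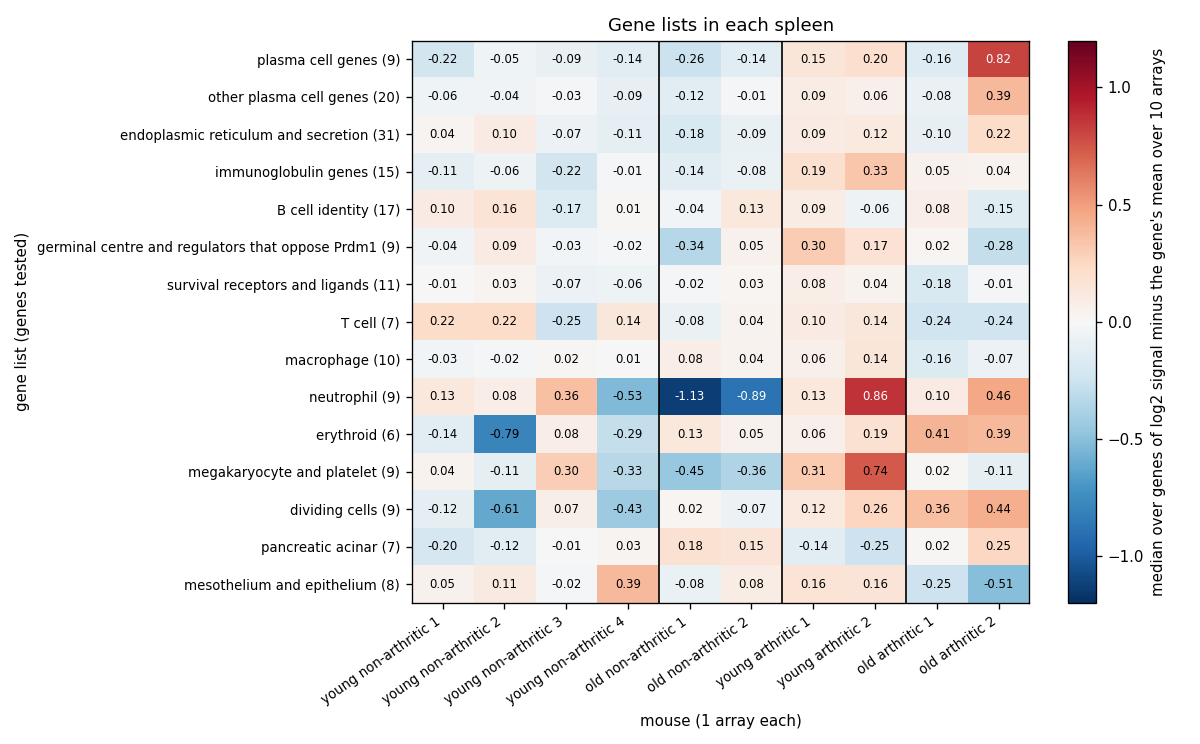
Median over the tested genes of each list (rows, number of genes in brackets) of the log2 signal relative to each gene's mean over the 10 arrays, for each mouse (columns). Old arthritic mouse 2 has 0.82 for the plasma cell genes and 0.04 for the immunoglobulin genes, and the young arthritic mice have 0.15 and 0.20 against 0.19 and 0.33.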

How the data were processed

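Total RNA from a piece of spleen of each mouse was labelled with biotin and hybridized to Affymetrix arrays. The values deposited by the authors are log2 signals from RMA, a method that removes background, equalises the distribution of all arrays and combines the probes of each set into 1 value. Its version, any array batch and the scan dates are not given in the sources used here. Forcing arrays towards 1 distribution makes every difference relative to the other probe sets, and signals near the top of the scale understate changes. The deposited values were not on exactly 1 distribution, since array medians still ran from 6.88 to 6.96.

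From these values 64 control rows of 45101 were left out, and probe sets above the array median in at least 2 arrays (23805) were tested in R 4.3.3 using the lmFit and eBayes functions of limma 3.58.1 (Benjamini-Hochberg over all tested probe sets, threshold 0.05). Fits of 4 group means (6 residual degrees of freedom) and of age in months with arthritis (7) gave the 6 comparisons, and intervals cover 95%. Of the probe sets other than controls, 34945 had 1 gene symbol, 932 had several and 9160 had none, and only those with 1 were named. Older symbols were matched through the annotation tables. Each mouse was labelled a biological replicate. The plasma cell genes and the other lists were chosen with earlier results of these data known. Named were all 9 plasma cell genes, the 2 brightest genes of each other list with those that passed, the 4 brightest immunoglobulin symbols, and the 10 genes most correlated with the plasma cell genes. The lists covered B cell identity, further plasma cell genes, survival receptors and ligands, the endoplasmic reticulum, germinal centres, T cells, macrophages, neutrophils, erythroid cells, megakaryocytes, dividing cells, pancreas and mesothelium. Alternatives were other filters, centring, quantile normalization, a trended prior, a replicate block, averaged probe sets, fits of the compared groups alone and leaving out each mouse. The fits were tested on simulated data. Promoter windows came from RefSeq (GRCm38.p6) and were searched with Python 3.11.15.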

Additional observations from a re-analysis of the deposited data

Results flagged for a closer look

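Only the young non-arthritic group, with 4 mice, was large enough to look for a mouse far from the others of its group, and 53 genes named in the text or its lists were looked at there. Chance alone would mark about 1 in 20, or 2.65 of 53, and 5 were marked, none of them among the 9 plasma cell genes. The gap to the nearest mouse, as a share of the range of the group, was 0.95 for Alas2 (heme synthesis), where mouse 2 was at 11.92 and the mean of the others was 13.07, and 0.923 for Id3, where mouse 3 was at 10.59 and the others at 10.96. It was 0.906 for S100a8, where mouse 4 was at 14.28 and the others at 14.59, and 0.857 for Irf8, where mouse 2 was at 12.41 and the others at 12.28. It was 1.0 for Ighm on its brightest probe set, where mouse 2 was at 15.21 and the others at 15.23, a gap of the size of the rounding of these values. No plasma cell gene had an arthritis difference that passed the test of a change between age classes.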

How the results depend on the processing

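The counts of passing probe sets depended strongly on the settings, and the cause was not tested. A change of filter also changes the set tested. Without a filter it was 45037 probe sets in place of 23805, and 43 immunoglobulin probe sets in place of 31. In old mice (17 in all) the count was 2280 without a filter, 0 with the stricter filter, 32 after quantile normalization, 7 with a trended prior, 0 with the replicate block and 0 in the compared groups alone. In young mice (74) it was 3186, 1, 34, 6, 0 and 17 under the same settings. At equal age (538) it was 5475 without a filter, 205 with the stricter filter, 274 with arrays centred on their medians, 177 after quantile normalization, where 66.7% and not 80.1% of the passing probe sets were higher in arthritic mice, and 29 with the replicate block. The share of higher calls there was 58.7% without a filter. The slope per month (1) had 0 with the trended prior and with the replicate block. For the plasma cell genes, none of which passed, the count at equal age was 1 without a filter and 1 with averaged probe sets, Tnfrsf17 both times. For the immunoglobulin probe sets, alternatives chosen after seeing the data, the count in old mice (1) was 6 without a filter and 0 with the stricter filter, the replicate block or the compared groups alone. In young mice (1) it was 8 without a filter and 0 with the stricter filter, quantile normalization, the trended prior, the replicate block or the compared groups alone. At equal age (10) it was 19 without a filter, 3 with the stricter filter, 1 after quantile normalization and 0 with the replicate block. Leaving out 1 mouse at a time gave 0 to 2 probe sets for age, 0 to 1532 for the old and 0 to 84 for the young comparison, 0 to 55 for the interaction, 0 to 1 for the slope and 0 to 872 at equal age. For the plasma cell genes it gave 0 to 1 (young) and 0 to 2 (equal age), and for the immunoglobulin probe sets 0 to 1 (old), 0 to 1 (young) and 0 to 9 (equal age). In old mice plasma cell genes passed only without old arthritic mouse 1. That fit kept 1 old arthritic mouse, whose spread was not measured, so its count is left out. The replicate numbers were not used to pair the mice in the main fits. Deviations of same-numbered mice correlated between -0.53 and 0.36. In groups of 2 the deviations mirror each other, so these few values cannot exclude a pairing. The block changed no call on a plasma cell gene. All 9 plasma cell genes kept positive differences in young mice and at equal age under every alternative, and in old mice under all but leaving out old arthritic mouse 2 (3 negative). Their size did change. After quantile normalization their median difference fell from 0.30 to 0.17 in young mice, from 0.33 to 0.21 at equal age and from 0.56 to 0.49 in old mice. The median over all tested probe sets fell from 0.09 to 0.0009 in young mice and from 0.09 to -0.004 at equal age. For the interaction, the sign changed in 12 of 90 values when a mouse was left out, and without old arthritic mouse 2 none of the 9 was positive. For age and the slope per month it changed in 9 and 11 of 90. Signal over background was not used here, so dim probe sets are limited by the median filter alone.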

Other observations

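The receptors and ligands that keep plasma cells alive were largely level. Of 15 such genes 11 were tested and none passed, with a median difference of 0.04 at equal age. Il6, Il5 and Il21, cytokines that feed plasma cells, were below the filter on dim probe sets. Cxcl12, the chemokine that holds plasma cells in their niche, was between 12.84 and 13.13 in the arthritic mice and between 13.01 and 13.16 in the non-arthritic mice. Vcam1, an adhesion partner of plasma cells on stromal cells, differed by 0.01 (SE 0.08) at equal age.

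In the other lists the medians at equal age were 0.67 for 9 megakaryocyte and platelet genes, all positive, 0.27 for 9 dividing cell genes, all positive, 0.20 for 6 erythroid genes, all positive, 0.04 for 10 macrophage genes, 0.02 for 7 T cell genes, -0.05 for 8 mesothelium and epithelium genes and -0.25 for 7 pancreatic acinar genes. Gp5, a platelet glycoprotein, was the only gene of these lists that passed, with 0.88 (SE 0.18, adjusted p = 0.0392 in limma), at 10.82 and 10.56 in the old arthritic mice, 10.22 and 10.23 in the old non-arthritic mice, 11.05 and 11.57 in the young arthritic mice, and between 10.35 and 10.98 in the young non-arthritic mice. Mki67, a marker of dividing cells, was at 13.17 and 12.74 in the old arthritic mice, and Ccnb2, a cyclin of the same list, at 12.22 and 12.24. The median deviation of the 9 dividing cell genes was 0.36 and 0.44 in these mice.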
